A study of Mus musculus with 2 samples.

Results

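The globins and red cell genes described here are 9 genes: the adult globin genes Hba-a1, Hbb-b1 and Hbb-b2, the embryonic globin genes Hba-x, Hbb-bh1 and Hbb-y, and 3 other genes of the red cell lineage, Alas2, Slc4a1 and Klf1. They were found by gene name among the non-control rows of the arrays, where 10 probes carried these names, out of 33182 probes for 24323 named genes. The samples were P0 wild-type tooth and P0 wild-type skin from mice. Total RNA was labelled with cyanine-3, and each tissue was hybridised to 1 Agilent whole-genome mouse array on the same slide. The labels gave P0 as the age of both tissues, the study's methods gave a stage a day later, and the labels were followed. The labels describe no sorting or removal of blood and give no strain or number of animals, the study's methods name C57BL/6J as its wild type, and no genotype or treatment other than wild type was used in these samples. Since each tissue had a single array, the spread between animals is unknown and nothing could be tested: every difference compares these arrays and not the tissues in general.

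Haemoglobin is a tetramer of alpha-like and beta-like globin chains, each holding a heme group, and it fills the red blood cell. In the mouse, the alpha-like genes lie together on one chromosome and the beta-like genes on another, each cluster with embryonic genes used by the primitive red cells of the yolk sac and adult genes used by the definitive red cells of the fetal liver, spleen and marrow. Mouse red cells lose their nucleus as they mature, and young circulating cells keep globin mRNA for a time, so whole tissues that hold blood vessels also hold red cell RNA.

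The probes of the measured and the dim globins are shown because near-identical gene copies are read through short stretches of sequence. Each probe has 60 bases and is given 5′ to 3′ on the sense strand. All letters are in lower case because no base was singled out, and coordinates are those of mm9 in the array files. The Hba-a1 probe lies at chr11:32183955-32184014 on the plus strand, the Hba-x probe at chr11:32177668-32177727 on the plus strand and the second Hbb-y probe at chr7:111000448-111000507 on the minus strand, while the file gave no mm9 position for the Hbb-b2 probe.
Hba-a1: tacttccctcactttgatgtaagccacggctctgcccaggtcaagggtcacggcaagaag
Hbb-b2: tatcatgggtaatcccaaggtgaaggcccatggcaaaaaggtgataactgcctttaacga
Hba-x: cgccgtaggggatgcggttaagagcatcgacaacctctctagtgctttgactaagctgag
Hbb-y: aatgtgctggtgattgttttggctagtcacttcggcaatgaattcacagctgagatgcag
Each of these 4 probes had 1 of 3 forward reading frames without a stop codon. No probe of the 9 genes shared a run of 20 bases with any other probe on the array. Transcripts were not searched, so RNA of close copies may add to a signal, in particular RNA of Hba-a2, whose coding sequence is nearly that of Hba-a1. The accession of the Hbb-b1 probe belonged to Hbb-bt in the RefSeq table used here, and the array's name Hbb-b1 was kept.

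The stretch before the transcription start is shown for the 5 genes whose promoters bear on the adult and embryonic globins and on heme synthesis. RefSeq promoters of build GRCm38.p6 matched 6 of the 9 genes, and Hbb-b2, Hbb-bh1 and Slc4a1 are named only. The 250 bases before each start were searched on both strands for GATAA, the core bound by GATA factors, CACCC, the box bound by Klf1 and its relatives, CCAAT and TATAA. The last 210 of these bases are given, 5′ to 3′ toward the gene, with every match on either strand in capitals.
Hba-a1, chr11:32283462-32283671, plus strand: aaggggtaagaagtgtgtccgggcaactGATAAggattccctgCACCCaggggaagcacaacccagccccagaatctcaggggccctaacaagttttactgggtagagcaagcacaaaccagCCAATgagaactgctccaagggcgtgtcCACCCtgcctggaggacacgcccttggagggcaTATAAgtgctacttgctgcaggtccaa
Hbb-b1 (Hbb-bt in RefSeq), chr7:103813924-103814133, minus strand: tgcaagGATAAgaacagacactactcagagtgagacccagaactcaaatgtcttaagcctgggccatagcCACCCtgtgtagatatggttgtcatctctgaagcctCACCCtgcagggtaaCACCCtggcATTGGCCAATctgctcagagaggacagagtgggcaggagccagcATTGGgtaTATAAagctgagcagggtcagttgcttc
Hba-x, chr11:32276390-32276599, plus strand: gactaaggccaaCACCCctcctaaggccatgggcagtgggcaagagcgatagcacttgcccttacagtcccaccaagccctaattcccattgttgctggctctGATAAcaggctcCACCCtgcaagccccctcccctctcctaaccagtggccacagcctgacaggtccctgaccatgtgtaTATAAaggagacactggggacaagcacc
Hbb-y, chr7:103853208-103853417, minus strand: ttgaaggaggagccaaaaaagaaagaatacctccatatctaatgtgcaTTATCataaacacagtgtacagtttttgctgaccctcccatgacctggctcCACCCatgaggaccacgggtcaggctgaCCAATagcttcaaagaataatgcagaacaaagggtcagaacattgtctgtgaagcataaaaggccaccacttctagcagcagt
Alas2, chrX:150547207-150547416, plus strand: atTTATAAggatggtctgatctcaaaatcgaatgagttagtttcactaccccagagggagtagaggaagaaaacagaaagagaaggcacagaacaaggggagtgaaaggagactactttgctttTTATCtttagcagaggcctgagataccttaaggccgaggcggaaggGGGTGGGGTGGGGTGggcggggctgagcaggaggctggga
GATAA stood in all 6 matched promoters, those above and that of Klf1, against 22.6% of the 32851 promoters in the table. CACCC also stood in all 6, against 52.0% of all promoters. CCAAT stood in 4 of the 6, against 33.8%, and TATAA in 4 of the 6, against 22.8%. In the adult globin promoters the last TATAA began 27 bases before the start of Hba-a1 and 28 before that of Hbb-b1, and the embryonic Hba-x also had it at 28. The promoters of measured and of dim genes thus held the same GATAA and CACCC letters, and a match is a description of the letters only.

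Levels are given as log2 of the processed signal minus the array's 75th percentile, which was a signal of 428 for tooth and 276 for skin. Differences are skin minus tooth, so that negative values are higher in tooth. The arrays called 56.7% of probes well above background in tooth and 52.5% in skin, and no spot was saturated. Each of the 10 probes had 1 spot per array, so its own spot scatter is unknown. The median spot SD of probes with at least 8 spots put the SD of a between-array difference at 0.12 (log2). The 95th percentile of those spot SDs was higher, at 0.26 in tooth and 0.24 in skin. Spot scatter also leaves out dissection, RNA preparation and labelling. The tissue labels were borne out by their markers. The 5 enamel and dentin markers were well above background in tooth alone, with the enamel gene Amelx at least 16383-fold higher there, and the 5 epidermal markers were all higher in skin, with the cornified layer gene Flg 7614-fold higher.

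Of the 9 genes, 5 were well above background on both arrays, namely Hba-a1, Hbb-b1, Hbb-b2, Alas2 and Slc4a1, and the other 4 were not on either. Of the 5 measured genes, 4 were higher in tooth and 1, Slc4a1, in skin. Among all 17409 named genes measured on at least 1 array, 52.4% were higher in tooth. Hba-a1 and Hbb-b2 were at least 2-fold higher in tooth, 2 of the 5 measured genes, against 15.5% of all named genes. None of the 5 was at least 2-fold higher in skin, against 14.2% of all named genes. The median difference of the 5 was -0.84, beside a median of -0.04 and quartiles of -0.58 and 0.47 over all named genes. In whole tissue, fewer red cells and less of a given RNA per red cell cannot be told apart.

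**Figure D1:**
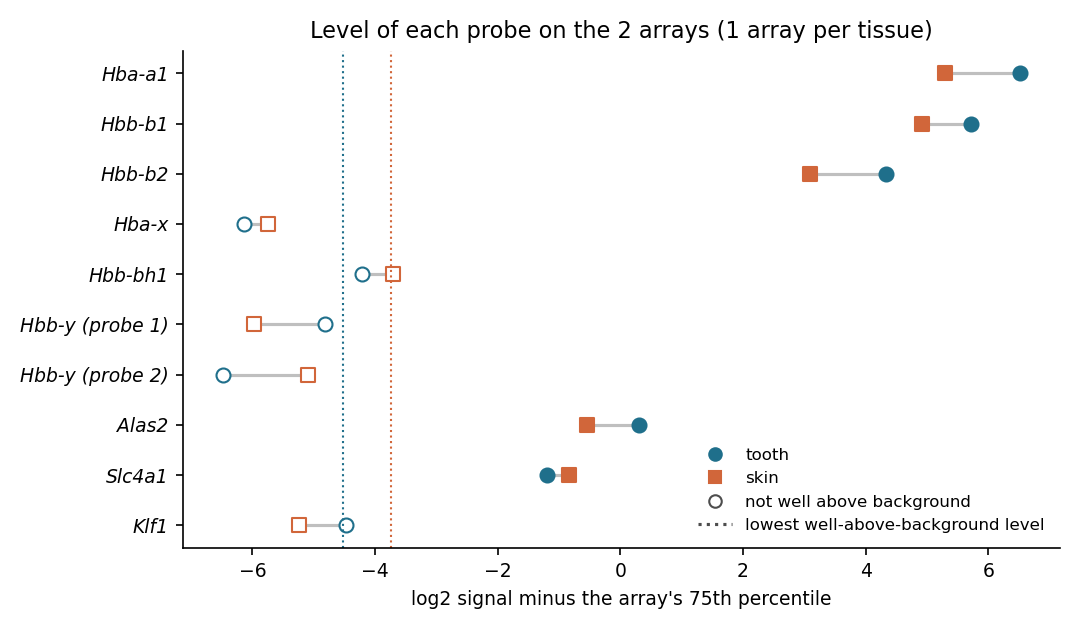
Level of each of the 10 probes (log2 signal minus the array's 75th percentile) in tooth (circles) and skin (squares). Open symbols were not well above background, and dotted lines mark the lowest level called well above background, -4.52 in tooth and -3.73 in skin. The adult globins and Alas2 lay to the right in tooth, Slc4a1 in skin, and the embryonic globins and Klf1 lay near the dotted lines or left of them.

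Adult alpha globin was read by the Hba-a1 probe, for one of the paired genes that make the alpha chain of adult haemoglobin. Its processed signal was 39151 in tooth and 10805 in skin, and its scaled level was 6.52 in tooth and 5.29 in skin. The level was higher in tooth, by a difference of -1.23, or 2.34-fold. Hba-a2, the paired gene, was read by a probe of its own at 8.78 in tooth and 8.05 in skin. It was also higher in tooth, by a smaller difference of -0.73. The gap of 0.50 between the differences of the paired genes was 3.04 times the SD of 0.16 that median spot scatter gives such a gap. A shift of a whole array leaves this gap as it is, but under quantile normalization it was 0.31, or 1.92 times that SD. Probes with spot SDs at the 95th percentile, 0.26 in tooth and 0.24 in skin, would give a larger SD, so the multiples hold for typical probes only.

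Adult beta globin was read by 2 of the 9 genes, Hbb-b1 and Hbb-b2, which make the major and the minor beta chain in mice with the diffuse haplotype. C57BL/6J mice carry the single haplotype instead, with Hbb-bt and Hbb-bs, so in mice of that strain the signals under both array names would come from RNA of those copies or of other globins. The Hbb-b1 probe, at chr7:110961105-110961164 of mm9 on the minus strand, had a signal of 22622 in tooth and 8359 in skin and levels of 5.72 and 4.92. It was higher in tooth by a difference of -0.80, or 1.75-fold. The Hbb-b2 probe had a signal of 8636 in tooth and 2350 in skin and levels of 4.34 and 3.09, and it was higher in tooth by -1.25, or 2.37-fold. Hbb-bs, the beta gene of the single haplotype that the array names Beta-s, was at 3.17 in tooth and 1.92 in skin, again higher in tooth by -1.25.

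The differences of the 5 adult globin probes, each read from 1 spot per array, lay near 2 values with 75th percentile scaling. Hba-a1, Hbb-b2 and Hbb-bs lay between -1.25 and -1.23, with the Hba-a1 and Hbb-b2 differences 0.02 apart. Hbb-b1 and Hba-a2 lay at -0.80 and -0.73, which were 0.07 apart. The gap between Hbb-b1 and Hba-a1 was 0.42, or 2.58 times the SD from median spot scatter. Near each of these values lay a probe named for an alpha gene and one named for a beta gene. RNA of close copies may add to these signals, so the probes need not read 5 separate genes. The split was lost under quantile normalization, where the 5 differences ran from -1.38 for Hba-a1 over -1.26 for Hbb-b2, -1.23 for Hbb-bs and -1.07 for Hba-a2 to -0.92 for Hbb-b1, and Hba-a2 was as near to Hbb-bs (0.16) as to Hbb-b1 (0.15).

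Ahsp, the chaperone that binds free alpha globin in red cell precursors, was not one of the 9 genes but belongs to the list of other globin genes, of which 4 of 6 were measured and 3 were higher in tooth. Its level was 0.82 in tooth and -2.93 in skin. It was higher in tooth by a difference of -3.75, or 13.5-fold. That difference was 2.53 beyond that of Hba-a1 on the log2 scale. The Ahsp signal in skin was 36.1, where the lowest signal called well above background was 20.8. With a normexp background correction, which lifts dim signals, the Ahsp difference was -2.47 and that of Hba-a1 -1.34, so the gap between them was smaller. Cygb, the cytoglobin of connective tissue cells and not a red cell gene, had levels of 3.44 in tooth and 3.24 in skin and so differed by -0.20.

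Alas2 encodes the red cell form of the enzyme that starts heme synthesis. Its probe, at chrX:147004993-147005052 of mm9 on the plus strand, had a signal of 529 in tooth and 190 in skin and levels of 0.31 and -0.54. Alas2 was higher in tooth by a difference of -0.84, or 1.79-fold, which was within 0.04 of the difference of Hbb-b1. The software's own error for the 5 measured genes was at most 10.5% of the signal.

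Slc4a1 encodes band 3, the anion exchanger of the red cell membrane. Its probe, at chr11:102210256-102210315 of mm9 on the minus strand, had a signal of 187 in tooth and 155 in skin and levels of -1.19 and -0.83. It was the only one of the 5 measured genes that was higher in skin, by a difference of 0.36, or 1.28-fold. Scaled to the 8 spike-in probes instead, every gene moved by -0.69, the median of all named genes to -0.73, and Slc4a1 was then higher in tooth, at -0.33. Slc4a1 lay 0.40 above the median of all named genes and Hbb-b1 lay at -0.76 relative to it under both scalings, since a uniform shift moves genes and median alike. The Slc4a1 difference lay above that of Hbb-b1 by 1.16, of Alas2 by 1.20, of Hba-a1 by 1.58 and of Hbb-b2 by 1.60. The smallest of these gaps was 7.12 times the SD from median spot scatter. Under quantile normalization or normexp the smallest of these gaps was 1.15 or 1.02, both against Alas2. Band 3 and the globins thus differed unequally between these arrays.

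**Figure D2:**
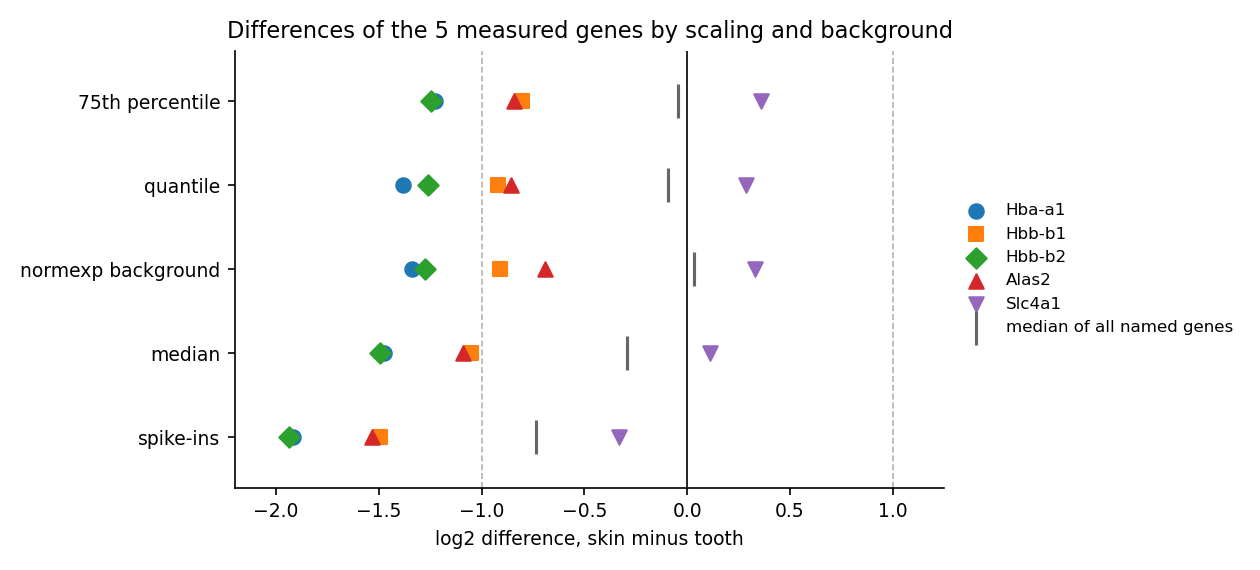
Difference in log2 level, skin minus tooth, for the 5 measured genes (coloured symbols) and the median of all named genes (grey bars) under 5 ways of scaling or background correction. Dashed lines mark 2-fold. The globins and Alas2 stayed left of 0 in every row, and Slc4a1 moved from 0.36 to -0.33 between 75th percentile and spike-in scaling.

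None of the embryonic globins was called well above background in tooth or skin. The Hba-x probe, for the embryonic alpha-like zeta chain, had a signal of 6.07 in tooth and 5.16 in skin. The Hbb-bh1 probe, for an embryonic beta-like chain, lay at chr7:110990209-110990268 of mm9 on the minus strand and had a signal of 23.1 in tooth and 21.2 in skin. These signals were low on both arrays, and no fold is given between dim values.

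Hbb-y, the embryonic epsilon-like gene, had 2 probes. The first, at chr7:111000268-111000327 of mm9 on the minus strand, had a signal of 15.2 in tooth and 4.41 in skin. The second, whose sequence is given above, had 4.81 in tooth and 8.05 in skin. The probes had opposite orders between the tissues, and neither was well above background.

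Klf1 encodes the transcription factor that binds CACCC boxes in adult beta globin and many other red cell promoters. Its probe, at chr8:87428881-87428940 of mm9 on the plus strand, had a signal of 19.2 in tooth and 7.33 in skin. Neither was well above background, although 308 of the 308 negative control spots in tooth and 300 of 308 in skin lay at or below it.

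The negative control spots had a median signal of 4.53 in tooth and 4.93 in skin, 95th percentiles of 5.15 and 5.56, and highest values of 17.8 and 27.0. Hbb-bh1 lay at or above all 308 controls in tooth and 306 in skin. Hba-x lay at or above 301 in tooth and 205 in skin. The first Hbb-y probe lay at or above 307 in tooth and 40 in skin, and the second at or above 220 in tooth and 300 in skin. The lowest signal called well above background was 18.7 in tooth and 20.8 in skin. The Hbb-bh1 signals on both arrays and the Klf1 signal of 19.2 in tooth passed it in size and still did not carry the call. A more lenient call of the software was met by Hbb-bh1 and Klf1 on both arrays. It was also met by Hba-x and the first Hbb-y probe in tooth, and by the second Hbb-y probe in skin. Probes without the stricter call were not counted as measured, which differs from absence.

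**Figure D3:**
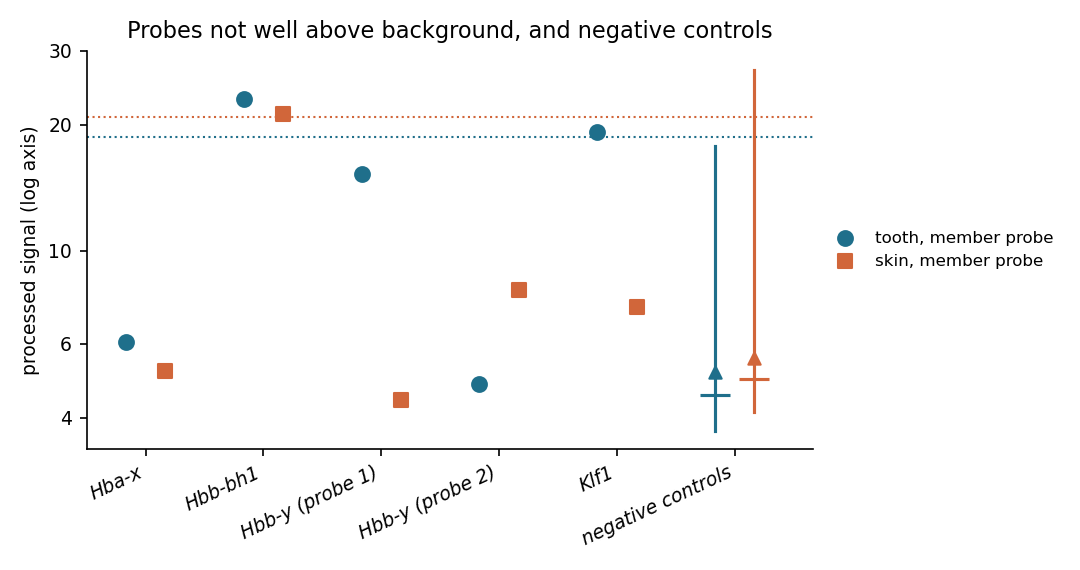
Processed signal (log axis) of the 5 probes not well above background, in tooth (circles) and skin (squares), beside the range of the 308 negative control spots (vertical lines), their median (bars) and 95th percentile (triangles). Dotted lines mark the lowest signal called well above background on each array. Hbb-bh1 had 23.1 and 21.2, and the Hbb-y probes had opposite orders.

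The probes around both globin clusters were set beside the genes by distance, a choice made after values were seen. In the alpha cluster Nprl3, whose introns hold the distal enhancers of alpha globin, was higher in tooth by -0.81 and -0.72 with 2 probes about 51 kb before Hba-a1, and its neighbour Mpg by -0.55 and -0.28. Snrnp25, farther away, was higher in skin by 0.59 and 0.54, as were Rhbdf1 by 0.47 and Il9r by 0.51 with its measured probe. Under spike-in scaling these 4 probes turned to the tooth side, between -0.22 and -0.10, while all 4 probes of Nprl3 and Mpg were at -0.97 or lower. With 75th percentile scaling, Mpg and Rhbdf1 lay within the quartiles of all named genes, -0.58 and 0.47, and Nprl3, Snrnp25 and Il9r outside them. A relation of the differences to distance was not tested. In the beta cluster the nearest flanking genes were 4 olfactory receptor genes, and 0 of their 6 probes were well above background on either array. The measured genes of the beta cluster with a position were Hbb-b1 and Hbb-bs, both higher in tooth.

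**Figure D4:**
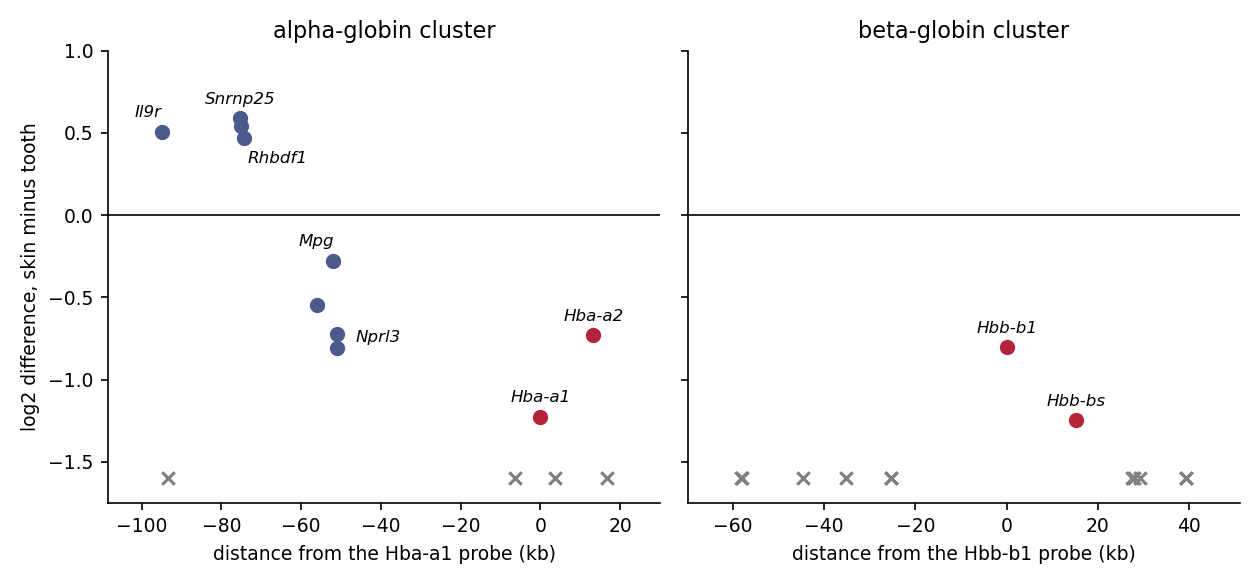
Difference in log2 level, skin minus tooth, against distance from the Hba-a1 probe (left) and the Hbb-b1 probe (right) in kb of mm9. Red points are globin genes, blue points their neighbours, and crosses at the bottom are probes not well above background on either array, drawn at an arbitrary height. The globins and the nearest measured neighbours, Nprl3 and Mpg, were higher in tooth and the farther ones higher in skin. Spike-in scaling would move every point by -0.69 and the farther ones to the tooth side. Mpg and Rhbdf1 lay within the quartiles of all named genes, -0.58 and 0.47.

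The genes that feed, surround or control the 9 genes were read from lists of pathway members. Counts in these lists use differences as measured, genes dim on 1 array included, and the folds of such genes are bounds against the lowest signal called well above background on the dim array, or the probe's own signal if higher. In heme synthesis and iron supply all 17 genes were measured, 12 were higher in tooth and 5 in skin, with a median of -0.40. Of all named genes, 52.4% were higher in tooth, the share to set beside the counts of this and every later list. At least 2-fold higher in tooth were 3 of the 17 genes, against 15.5% of all named genes. Steap3, the ferric reductase of the transferrin cycle, was 2.70-fold higher in tooth, Uros, a heme synthesis enzyme, 2.07-fold, and Slc25a38, the mitochondrial glycine carrier, 2.05-fold. Hmox1, which breaks heme down, was 2.89-fold higher in skin. The list median thus lay on the tooth side, as Alas2 did, with smaller differences for most enzymes. That median was within the quartiles of all named genes, -0.58 and 0.47, and was -0.16 with the mean of all probes.

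In the red cell membrane, the surroundings of Slc4a1, 10 of 16 genes were measured, 5 higher in tooth and 5 in skin. Gypc, glycophorin C, was 7.96-fold higher in tooth, Rhd, a Rhesus protein, at least 10.65-fold and Icam4, the Landsteiner-Wiener antigen, at least 3.35-fold, while Ank1, the ankyrin that holds band 3 to the skeleton, was at least 3.54-fold higher in skin. The median was -0.26 and changed to 0.16 with dim values set at their bounds, so the list had no settled direction. Epb42, Rhag and Kel, which sit with band 3 in or under the red cell membrane, were dim in both tissues. Dmtn, named Epb4.9 on the array, had 2 probes that disagreed, the brighter at 0.50 and the dimmer at -3.05.

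Of the erythroid transcription factors, the class of Klf1, 10 of 13 were measured, 4 higher in tooth and 6 in skin, with a median of 0.37. The median was 0.02 with the mean of all probes and turned to -0.32 under spike-in scaling. Zfpm1, the partner of GATA factors, had levels of 0.83 in tooth and 2.83 in skin, and Nfe2, a regulator of globin and platelet genes, was 3.41-fold higher in skin. Sox6, which takes part in silencing embryonic beta globin, was at least 2.41-fold higher in skin, whereas Tal1 was 2.64-fold higher in tooth. Gata1, Gfi1b and Ikzf1 were, like Klf1, dim in both tissues. Most of these factors also act in cells other than red cells.

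Of the erythropoietin and kit signalling genes, all 10 were measured, 4 higher in tooth and 6 in skin, with a median of 0.14 that turned to -0.11 under median scaling and -0.55 under spike-in scaling. Epo itself, the hormone that drives red cell formation, was at least 3.05-fold higher in skin, and Stat5a, a transducer of its signal, 2.04-fold. Its receptor Epor was higher in tooth by a difference of -0.73, less than 2-fold. Of the late erythroid enzymes, 12 of 14 were measured, 7 higher in tooth and 5 in skin, with a median of -0.24. Car2, a carbonic anhydrase that other cells also use, was 18.0-fold higher in tooth, Tent5c, a poly(A) polymerase induced in late red cell precursors, 5.56-fold, and Bpgm, which makes the haemoglobin ligand 2,3-bisphosphoglycerate, 2.24-fold.

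Markers of other cells moved with the globins. Of 16 markers of other blood cells, all were measured and 12 were higher in tooth, with a median of -1.68, and their summed level relative to the 75th percentile was 42.7 in tooth and 25.9 in skin. Mpo, of neutrophil precursors, was at least 30.1-fold higher in tooth, S100a9 and S100a8, of neutrophils and also of keratinocytes, 12.6-fold and 6.17-fold, and Ppbp, of platelets, at least 1.70-fold. Other platelet markers were higher in skin, Pf4 1.72-fold and Itga2b at least 3.02-fold. Camp, a neutrophil granule gene, and Cd68, of macrophages, were measured on both arrays and were 3.63-fold and 3.46-fold higher in tooth. With dim values at their bounds the median of the list was -0.59. Of 11 markers of blood vessel endothelium, 9 were higher in tooth, with a median of -2.08 and summed levels of 74.8 in tooth and 50.3 in skin. Emcn was 8.55-fold, Cdh5 6.50-fold, Flt1 5.93-fold and Esam 5.60-fold higher in tooth. Pecam1, well above background on both arrays, was higher in skin by 0.50. The brighter Kdr probe, with 1 spot, was also higher in skin, at 0.43, and the other Kdr probe, with 10 spots, was at -2.19. That brighter probe had the highest skin level of the endothelial list, 5.21, so the summed level in skin rests largely on it. Most markers of both lists were thus higher in tooth along with the adult globins, against 52.4% of all named genes. The endothelial median lay farther to the tooth side than the -0.84 of the 5 measured genes also at bounds (-1.91) and under normexp (-1.42 against -0.91). The other blood cell median did not, since at bounds, and under normexp (-0.21), it lay nearer to 0. Their part in the globin differences was not tested.

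**Figure D5:**
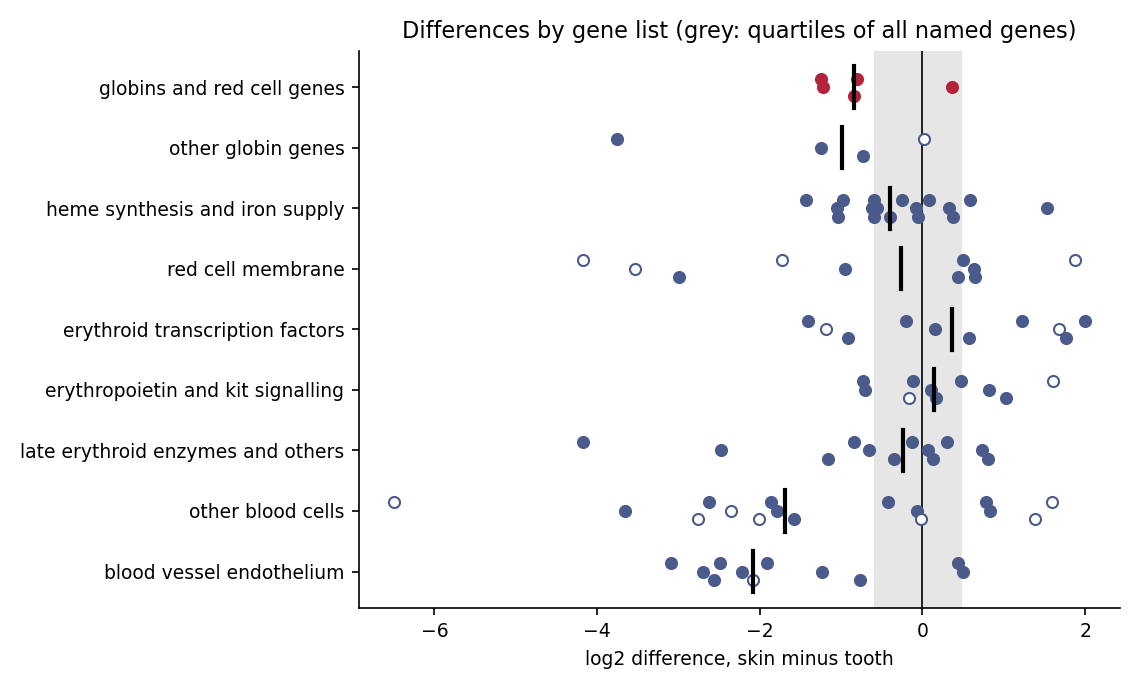
Difference in log2 level, skin minus tooth, for the 5 measured genes (red) and for the genes of 8 lists (blue). Open points were well above background on 1 array only, black bars are medians, and the grey band spans the quartiles of all named genes, -0.58 to 0.47. The medians of the other blood cell and endothelial lists, -1.68 and -2.08, lay to the tooth side of that of the red cell genes, -0.84. The other blood cell median moved to -0.59 with open points at their bounds.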

How the data were processed

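Total RNA of P0 wild-type tooth and skin was measured on 1 single-colour Agilent array each. The authors deposited linear spot intensities that Agilent's Feature Extraction software (10.7.3.1, per the submitters' processing notes) had background-subtracted and detrended, with very dim values replaced by surrogates (25.0% of spots in tooth and 27.7% in skin). The authors' table of processed values held the ratio of that intensity to 1 factor per array. It was used as an alternative only.

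Outlier spots were dropped, spots of a probe averaged on the log2 scale, and the 75th percentile over non-control probes subtracted. A probe was well above background when over 50% of its spots carried that call. The brightest probe stood for a gene. Names followed RefSeq (GRCm38.p6) by accession for 27234 of 33182 named probes, and the members by array name. The technical SD came from the median spot SD over 288 probes in tooth and 273 in skin. The number of arrays limits the precision.

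The members and lists were chosen with earlier results of these data known. The text names every member with every probe, and for each list the genes at least 2-fold different as measured, up to the 4 largest. Other names were chosen after their values were seen: undetected markers, Epor, Cygb, Hba-a2, Hbb-bs, Kdr, Pecam1, Dmtn, Pf4, Itga2b, Treml1, Gp9, Camp, Cd68 and the cluster neighbours. Listed genes sharing an array name were counted once. Some genes of the lists are not reported here. Alternatives were spike-in, median and quantile scaling, normexp (offset 50, limma 3.58.1), the mean of all probes, no filter, detection on both arrays, a lenient detection call, outliers kept and the authors' table. Scripts (Python 3.11.15, pandas 2.3.3, R 4.3.3) were tested on simulated data.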

Additional observations from a re-analysis of the deposited data

How the results depend on the processing

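Hba-a1, Hbb-b1, Hbb-b2 and Alas2 were higher in tooth under all 10 alternatives, with differences from -1.92 to -1.21, -1.49 to -0.79, -1.94 to -1.23 and -1.53 to -0.69. Slc4a1 ranged from -0.33 to 0.38 and was higher in tooth under spike-in scaling alone (-0.33). Spike-in scaling moved every gene by -0.69 and median scaling by -0.25, so that the median difference of the 5 measured genes was -1.53 and -1.09 and 4 genes were at least 2-fold higher in tooth under each, against 2. All named genes at least 2-fold higher in tooth were 35.4% under spike-in scaling and 9.60% under normexp, and the share under median scaling is not given here. Without a filter, or with the lenient call, all 9 genes entered and 6 were higher in tooth, but the added values lie near background. The median of all named genes was 0.18 without a filter and 0.04 with the lenient call. Under normexp, Slc14a1, a urea transporter of the red cell membrane list, turned from -1.73 to 0.014, and the median of other blood cells was -0.21. Icam4 fell below 2-fold (-0.70), as did Ppbp (-0.28), Tal1 (-0.43), Ank1 (0.84), Sox6 (0.71), Epo (0.84), Itga2b (0.93) and Stat5a (0.86). Rhd (-1.84) and Mpo (-3.34) stayed past 2-fold but fell short of the bounds given above. The median of the red cell membrane list was 0.47 with detection on both arrays and without a filter. Median scaling brought Stat5a (0.78) below 2-fold. Spike-in scaling brought Hmox1 (0.84), Epo (0.92), Sox6 (0.99), Itga2b (0.91) and Stat5a (0.34) below 2-fold. It also turned the brighter probes of Dmtn (-0.19) and Kdr (-0.26) and the Pecam1 probe (-0.19) to the tooth side. With 1 array per tissue no array could be left out. Signal over background limits the embryonic globins and Klf1, whose differences cannot be read from these arrays.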
